A study of Mus musculus with 12 samples.

Results

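The genes described are 9 components of the epithelial tight junction: the plaque scaffolds Tjp1, Tjp3 and Cgn, the polarity scaffolds Pals1 and Patj, the tetraspan membrane proteins Ocln, Marveld2 and Marveld3, and the adhesion molecule F11r. They were chosen by symbol, and all 9 were found among the 55891 genes of the deposited table and passed the filter on low values (1 TPM reached in 6 or more libraries). Transcript levels were measured by mRNA sequencing of scrapings of ileal mucosa, the inner lining of the distal small intestine, from mice at baseline. Such material contains epithelial cells together with some of the underlying tissue. In such bulk samples fewer cells of a type and less RNA per cell cannot be told apart. The 6 ERBB3-dIE and 6 Erbb3-FF mice gave 1 library each. Litter A held 3 ERBB3-dIE and 4 Erbb3-FF mice, and litter B held 3 ERBB3-dIE and 2 Erbb3-FF mice. Erbb3 encodes a receptor tyrosine kinase of the ErbB family, and the series title concerns its part in the small intestinal barrier. The labels spell out neither genotype name, and they give no strain, age, driver or altered exon.

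Tight junctions seal the space between neighbouring epithelial cells near their apical side. Membrane proteins of the claudin, occludin and junctional adhesion molecule families meet across the gap. Inside the cell they bind scaffold proteins rich in PDZ domains, which link them to actin and myosin. The Crumbs complex of Crb3, Pals1 and Patj sets the apical border at which the junction forms. In the gut these proteins together limit the leak of ions and larger solutes between cells.

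In ERBB3-dIE mice 4 of the 9 genes were called lower: the scaffolds Pals1, Patj, Tjp1 and Cgn. They stood at 72.8% to 80.1% of their mean TPM in Erbb3-FF mice. TPM is an abundance corrected for transcript length. No member rose. The paralog Tjp3 and the membrane proteins F11r, Ocln, Marveld2 and Marveld3 did not pass the test. Calls here are limma adjusted p-values under 0.05 on log2(TPM + 0.5), with litter as a term. By that rule 5.36% of the 12605 tested genes were called, 3.7% lower and 1.66% higher. The members' median log2 difference was −0.26, beside −0.000658 over all tested genes. The 4 calls lay close to the threshold, and between 0 and 4 members were called when 1 library was left out. None was called without ERBB3-dIE mouse 5, Erbb3-FF mouse 1 or Erbb3-FF mouse 6, and 1 was called without ERBB3-dIE mouse 1, 4 or 6 or Erbb3-FF mouse 2. Without ERBB3-dIE mouse 2 or 3 or Erbb3-FF mouse 4, 2 were called. The p-values measure the spread between these mice.

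Promoters of 7 of the 9 members are held by the RefSeq table at hand. It is of build GRCm38.p6, not the build GRCm39 that the submitters' processing notes name. Windows run from 250 bases before to 50 bases after a start site. Shown 5′ to 3′ are the first listed windows of 3 scaffold genes that fell together, with that of Tjp3, a paralog of Tjp1 that did not pass. Capitals mark matches on either strand. The E-box was searched as CAGGTG and the GC box, which binds Sp factors, as GGGCGG. The CCAAT box was searched by the letters of its name. The motif of Grhl2, an epithelial transcription factor, was searched as AACCNGTT, and that of Hnf4a, an enterocyte factor, as CAAAGTCCA.
Tjp1 (chr7:65371195-65371494, minus strand): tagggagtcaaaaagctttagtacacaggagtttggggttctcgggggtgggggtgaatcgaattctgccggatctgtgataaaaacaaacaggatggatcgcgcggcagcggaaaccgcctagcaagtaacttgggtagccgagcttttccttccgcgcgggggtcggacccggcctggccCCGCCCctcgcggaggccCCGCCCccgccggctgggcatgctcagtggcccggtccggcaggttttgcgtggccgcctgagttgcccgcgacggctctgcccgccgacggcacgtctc
Cgn (chr3:94786433-94786732, minus strand): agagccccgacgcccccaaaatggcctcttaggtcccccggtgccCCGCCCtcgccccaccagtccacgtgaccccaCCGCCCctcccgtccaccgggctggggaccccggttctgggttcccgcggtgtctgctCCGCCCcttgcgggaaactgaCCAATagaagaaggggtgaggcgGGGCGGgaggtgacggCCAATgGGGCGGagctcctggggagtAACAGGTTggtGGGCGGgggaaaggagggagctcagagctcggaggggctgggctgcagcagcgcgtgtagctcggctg
Patj (chr4:98395576-98395875, plus strand): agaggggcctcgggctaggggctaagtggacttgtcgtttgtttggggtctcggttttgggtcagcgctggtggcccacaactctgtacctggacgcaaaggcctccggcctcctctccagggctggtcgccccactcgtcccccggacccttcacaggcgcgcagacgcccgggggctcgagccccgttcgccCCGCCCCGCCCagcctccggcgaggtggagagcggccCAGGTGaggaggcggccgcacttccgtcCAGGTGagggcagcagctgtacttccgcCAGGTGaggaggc
Tjp3 (chr10:81291532-81291831, minus strand): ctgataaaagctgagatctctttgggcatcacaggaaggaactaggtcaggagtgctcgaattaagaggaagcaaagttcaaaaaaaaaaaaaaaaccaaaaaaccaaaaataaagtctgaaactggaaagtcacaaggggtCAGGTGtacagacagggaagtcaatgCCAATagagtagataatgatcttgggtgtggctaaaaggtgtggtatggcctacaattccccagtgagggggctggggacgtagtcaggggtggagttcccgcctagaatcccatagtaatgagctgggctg
The GC box occurred 2 times in the Tjp1 window, 6 times in that of Cgn and 2 times, overlapping, in that of Patj. It was absent from both Tjp3 windows and from the other windows of Patj, and it occurred 1 time in every window of F11r, Ocln and Marveld2, which were not called. Of all 32851 windows 35.7% held it. The Patj window held 3 E-boxes and that of Tjp3 held 1 (20.2% of all windows held at least 1). The Cgn window held 2 CCAAT matches and 1 Grhl2 match, and Tjp3 held 1 CCAAT match (37.4% and 2.09% of all windows). The Hnf4a letters occurred in none of the 4 windows and in 0.475% of all. G and C made up 65.3%, 70.3% and 70.0% of the Tjp1, Cgn and Patj windows and 45.3% of the Tjp3 window. Their median share over all 32851 windows was 52.7%. They made up 60.3% of the F11r window, 64.0% and 68.0% of those of Ocln, 54.0% and 59.0% of those of Marveld2, 57.3% of the second Tjp3 window, and 48.3% and 49.3% of the other Patj windows. Over all these windows neither measure divided the called genes from the others. Among the first listed windows alone, those of called genes held at least 2 GC boxes and the others at most 1. There G and C made up at least 65.3% in called genes and at most 64.0% in the others. So few genes show no link to the calls, and which start sites are used was not tested. The motif matches describe letters in a window and show no binding.

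Several libraries stood apart. ERBB3-dIE mice 4 and 5 had summed smooth muscle marker levels of 125 and 123 TPM, beside at most 43.04 TPM in the other 10 libraries. Summed B cell markers reached 316, 144 and 123 TPM in Erbb3-FF mice 1, 2 and 3, beside at most 17.1 TPM elsewhere. Erbb3-FF mice 5 and 6 had 10.2% and 10.8% of their TPM in Mir6236 and Rn18s-rs5, which carry ribosomal sequence, and the others at most 1.62%. Epcam and Cdh1, which define epithelium, were abundant in every library (at least 1190 and 183 TPM). In ERBB3-dIE mice they stood at 80.8% and 85.8% of their mean TPM in Erbb3-FF mice. Their log2 differences were −0.38 and −0.22 and were not called (limma adjusted p = 0.0813 and 0.153). Gene-level Erbb3 lay between 104 and 206 TPM in ERBB3-dIE mice (median 138) and between 87.3 and 151 TPM in Erbb3-FF mice (median 115). Since the altered exons are not named in the labels, this sum over all transcripts checks nothing, and the genotypes are used as labelled.

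Pals1 and Patj carry the largest differences. Pals1 (ENSMUSG00000021112), the scaffold that joins Crb3 to Patj, ranged from 13.1 to 20.3 TPM in ERBB3-dIE mice (median 16.7) and from 18.4 to 26.2 TPM in Erbb3-FF mice (median 23.1). Of the ERBB3-dIE libraries 5 of 6 lay below the lowest Erbb3-FF library, which was that of mouse 5. The log2 difference was −0.49 (SE 0.10, 95% interval −0.71 to −0.27, limma adjusted p = 0.0206).

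Patj (ENSMUSG00000061859), a large protein of many PDZ domains that binds Pals1, ranged from 25.9 to 40.6 TPM in ERBB3-dIE mice (median 33.1) and from 34.2 to 56.2 TPM in Erbb3-FF mice (median 47.1). Its ranges overlapped more, with 3 of 6 ERBB3-dIE libraries below all Erbb3-FF libraries. On the log2 scale Patj differed by −0.48 with an SE of 0.12 (limma adjusted p = 0.0382).

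Tjp1 (ENSMUSG00000030516) encodes ZO-1, the scaffold that ties claudins and occludin to actin. Its level was 22.2 to 28.0 TPM in ERBB3-dIE mice (median 24.1) and 27.3 to 32.5 TPM in Erbb3-FF mice (median 32.0). Of the ERBB3-dIE libraries 4 of 6 lay below every Erbb3-FF library. Its difference was −0.34 on the log2 scale, with an SE of 0.08 (limma adjusted p = 0.0378).

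Cgn (ENSMUSG00000068876) encodes cingulin, which binds ZO-1 and myosin at the cytoplasmic face. It lay between 36.2 and 43.9 TPM in ERBB3-dIE mice (median 38.0) and between 42.6 and 57.9 TPM in Erbb3-FF mice (median 51.3). Of the ERBB3-dIE libraries 5 of 6 lay below every Erbb3-FF library, and ERBB3-dIE mouse 4 lay above Erbb3-FF mouse 2. This gave a log2 difference of −0.33 with an SE of 0.08 (limma adjusted p = 0.0391).

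Set within litters, each of these 4 genes separated the genotypes. In litter B, Pals1 was 17.9 ± 2.23 TPM in ERBB3-dIE mice (SD, n = 3) and 25.1 ± 1.44 TPM in Erbb3-FF mice (SD, n = 2). In litter A it was 15.4 ± 2.16 TPM in ERBB3-dIE mice (n = 3) and 21.8 ± 2.32 TPM in Erbb3-FF mice (n = 4). In each litter every ERBB3-dIE library lay below every Erbb3-FF library for Pals1, Patj, Tjp1 and Cgn. Of all tested genes 4.75% were lower and 2.46% higher in this way. Over both litters together the ranges of all 9 members overlapped, while 1.43% of tested genes lay wholly lower. Relabelling genotypes within litters, an exact 2-sided permutation test gave p = 0.00286 for Tjp1 and Patj, the smallest that its 350 relabellings can give, and p = 0.00571 for Cgn and Pals1. Over all tested genes that smallest p adjusted to 0.0641, so this permutation test could call no gene. The separation within litters and these p-values come from the libraries that gave the limma calls, and so are no independent support.

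Tjp3 (ENSMUSG00000034917) encodes ZO-3, the epithelial paralog of ZO-1. It lay between 95.3 and 113 TPM in ERBB3-dIE mice (median 103) and between 86.8 and 116 TPM in Erbb3-FF mice (median 100.3). The ranges overlapped throughout. The log2 difference was 0.05 (95% interval −0.12 to 0.23, limma adjusted p = 0.736), so that a fall as large as the fitted fall of Tjp1 lies outside this interval.

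**Figure D1:**
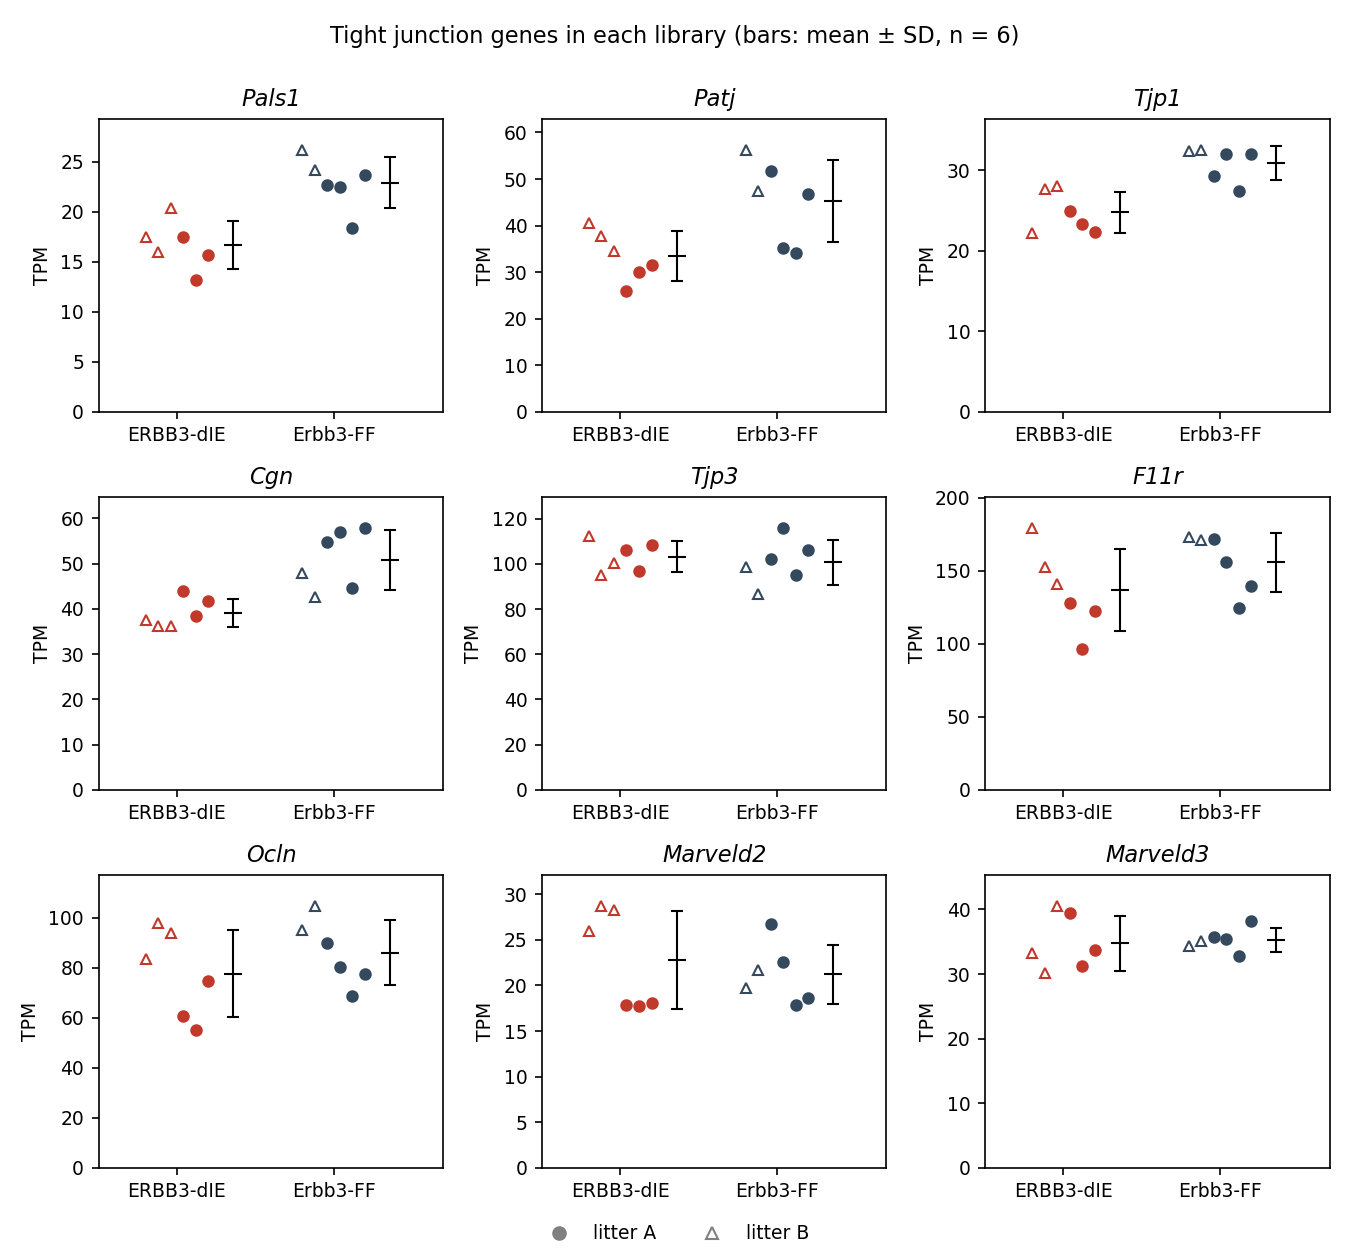
TPM of each member (vertical axes, from 0) by genotype, with litter B as open triangles, litter A as filled circles and mean ± SD of 6 libraries as bars. Pals1, Patj, Tjp1 and Cgn sat lower in ERBB3-dIE libraries within each litter, while the Tjp3 ranges (95.3 to 113 against 86.8 to 116 TPM) lay on each other.

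The membrane proteins did not pass the genotype test. F11r (ENSMUSG00000038235), which encodes junctional adhesion molecule A, ranged from 96.7 to 179 TPM in ERBB3-dIE mice (median 135) and from 124 to 173 TPM in Erbb3-FF mice (median 163). Its log2 difference was −0.26 (95% interval −0.50 to −0.02, limma adjusted p = 0.190). The lowest value was that of ERBB3-dIE mouse 5 and the highest that of ERBB3-dIE mouse 1.

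Ocln (ENSMUSG00000021638) encodes occludin, a tetraspan protein that binds ZO-1. It ranged from 55.1 to 97.8 TPM in ERBB3-dIE mice (median 79.0) and from 68.7 to 105 TPM in Erbb3-FF mice (median 85.1), with ranges that overlapped. The log2 difference was −0.24 (95% interval −0.46 to −0.02, limma adjusted p = 0.186).

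Marveld3 (ENSMUSG00000001672), a relative of occludin, had the smallest difference, at 30.2 to 40.5 TPM in ERBB3-dIE mice (median 33.5) and 32.8 to 38.3 TPM in Erbb3-FF mice (median 35.2). The log2 difference was −0.02 (95% interval −0.22 to 0.17, limma adjusted p = 0.903), and its sign turned under 2 scalings.

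Marveld2 (ENSMUSG00000021636) encodes tricellulin, the relative of occludin concentrated where 3 cells meet. Over both litters it ranged from 17.7 to 28.7 TPM in ERBB3-dIE mice (median 22.0) and from 17.9 to 26.8 TPM in Erbb3-FF mice (median 20.7), with a log2 difference of 0.03 (limma adjusted p = 0.926). In litter B it was 26.0, 28.7 and 28.3 TPM in ERBB3-dIE mice and 19.7 and 21.7 TPM in Erbb3-FF mice, without overlap. In litter A it was 17.9, 17.7 and 18.1 TPM in ERBB3-dIE mice and 26.8, 22.6, 17.9 and 18.7 TPM in Erbb3-FF mice, with overlap. Groups as small as those of litter B often lie apart by chance. The share of all tested genes apart in litter B alone was not counted, so the missing overlap is only a description. Subtracting the litter A difference between genotypes from that of litter B gave 0.65 on the log2 scale (SE 0.21, limma unadjusted p = 0.0124, limma adjusted p = 0.378). No member and no other gene passed the interaction test after adjustment (limma, 0% of tested genes), while 9.31% of genes, Marveld2 alone among the members, had an unadjusted p under 0.05. For the other 8 members the interaction lay between 0.01 and 0.22, with adjusted p-values of at least 0.794. On simulated data the interaction test recovered 0.299% of log2 changes of 0.5 and 10.1% of those of 1. A missing call therefore does not show that an interaction is absent.

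Between litters 1 member was called. Ocln was higher in litter B, at 83.3 to 105 TPM (5 libraries), than in litter A, at 55.1 to 89.9 TPM (7 libraries), and the ranges overlapped. It differed by 0.44 on the log2 scale, with an SE of 0.10 (limma adjusted p = 0.0293), against a background of 7.16% of genes called higher and 8.55% called in either direction. The lowest libraries were ERBB3-dIE mice 5 and 4 of litter A, those rich in smooth muscle markers. The call held in 3 of the 12 repeats that left out 1 library: those without ERBB3-dIE mouse 3, ERBB3-dIE mouse 6 or Erbb3-FF mouse 3. It was lost with each marker list used as a covariate: villus enterocyte (0.18, limma adjusted p = 0.810), smooth muscle (0.27, 0.198), goblet (0.34, 0.393), crypt and cycling (0.38, 0.232) and B cell (0.43, 0.183). Of these lists, 5 of 10 villus enterocyte and 4 of 8 goblet genes were called higher in litter B (medians 0.96 and 0.28). Of the smooth muscle genes 1 of 6 was called lower (median −1.53). No tested crypt and cycling or B cell gene was called between litters (medians −0.75 and 1.40). Mitochondrial transcripts made up 7.94% to 15.0% of TPM in litter B and 13.6% to 22.1% in litter A. With mitochondrial and ribosomal sequence removed Ocln was not called (0.31, limma adjusted p = 0.0554) and Cgn was the single member called, lower in litter B (−0.33, limma adjusted p = 0.0376). F11r (0.34), Patj (0.34), Marveld2 (0.31) and Pals1 (0.21) had positive differences and Cgn (−0.20) a negative one, with adjusted p-values from 0.0724 to 0.194. Tjp1 (0.12), Tjp3 (−0.09) and Marveld3 (−0.02) had adjusted p-values of at least 0.354.

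**Figure D2:**
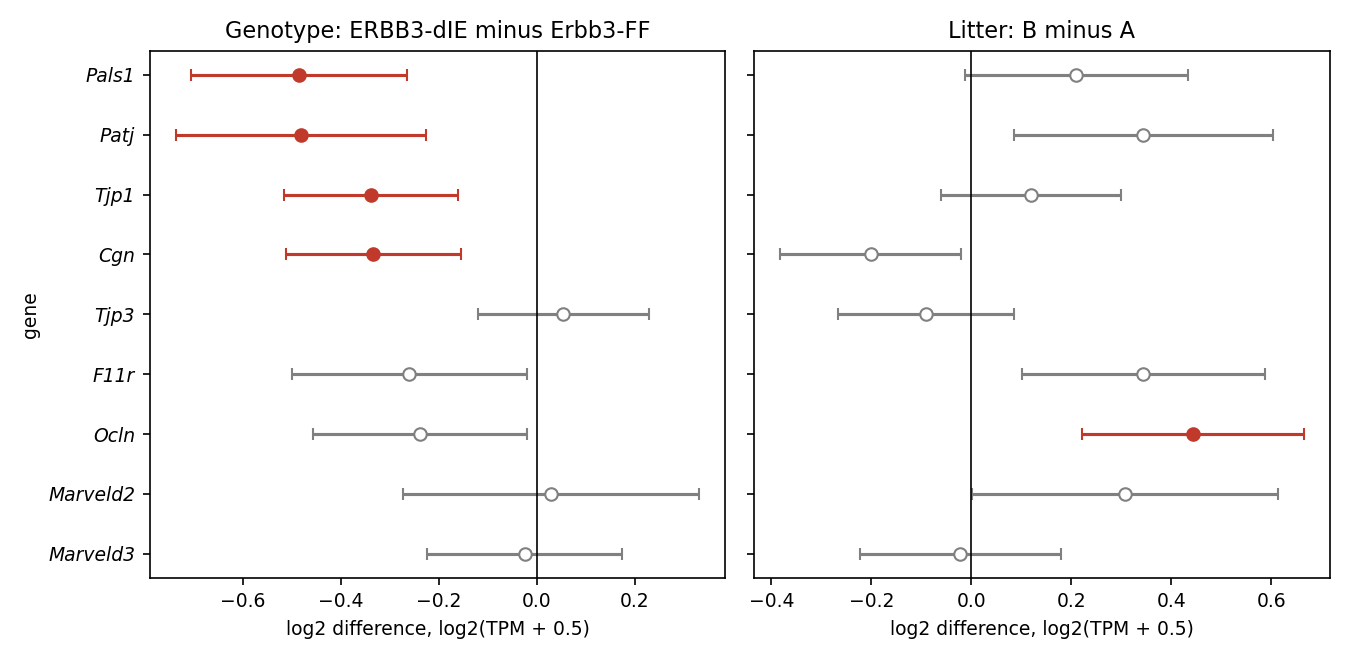
Log2 difference of each member on the log2(TPM + 0.5) scale with its 95% interval, for genotype (left) and litter (right), called members in filled red. Pals1 (−0.49) and Patj (−0.48) lie farthest below 0 for genotype, and Ocln (0.44) is the single call for litter.

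Ratios within a library do not depend on how the library was scaled. Of 7 ratios compared, that of Tjp3 to Tjp1 was called: 4.23 ± 0.65 in ERBB3-dIE mice and 3.27 ± 0.35 in Erbb3-FF mice (SD, n = 6 each; exact 2-sided permutation within litters p = 0.00286, adjusted over the 7 ratios p = 0.0200). In litter B it was 5.07, 3.44 and 3.59 in ERBB3-dIE mice and 3.05 and 2.67 in Erbb3-FF mice. In litter A it was 4.26, 4.14 and 4.85 in ERBB3-dIE mice and 3.48, 3.62, 3.48 and 3.31 in Erbb3-FF mice, so the genotypes did not overlap within a litter. With litters ignored the adjusted p was 0.106, and the ratio was called in each of the 6 repeats without an ERBB3-dIE library and in none of the 6 without an Erbb3-FF library. Without Erbb3-FF mouse 1 or 2 only 140 relabellings remain, so that a single ratio cannot reach an adjusted p below 0.05. Over all 12 repeats the log2 difference stayed between 0.32 and 0.42. With all libraries it was 0.39, which is the difference of Tjp3 (0.05) minus that of Tjp1 (−0.34). The ratio thus restates those 2 values and is adjusted over 7 ratios, not over all tested genes. The ratio of the partners Patj and Pals1 was 2.03 ± 0.37 in ERBB3-dIE mice and 1.97 ± 0.25 in Erbb3-FF mice (exact permutation p = 0.971), and that of Cgn to Tjp1 was 1.60 ± 0.24 in ERBB3-dIE mice and 1.65 ± 0.22 in Erbb3-FF mice (exact permutation p = 0.960). Tricellulin to occludin transcripts stood at 0.294 ± 0.028 in ERBB3-dIE mice and 0.249 ± 0.038 in Erbb3-FF mice (exact permutation p = 0.0371, adjusted p = 0.130). The ratios of F11r and Ocln to Tjp1 and of Marveld3 to Ocln had adjusted p-values from 0.213 to 0.848.

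**Figure D3:**
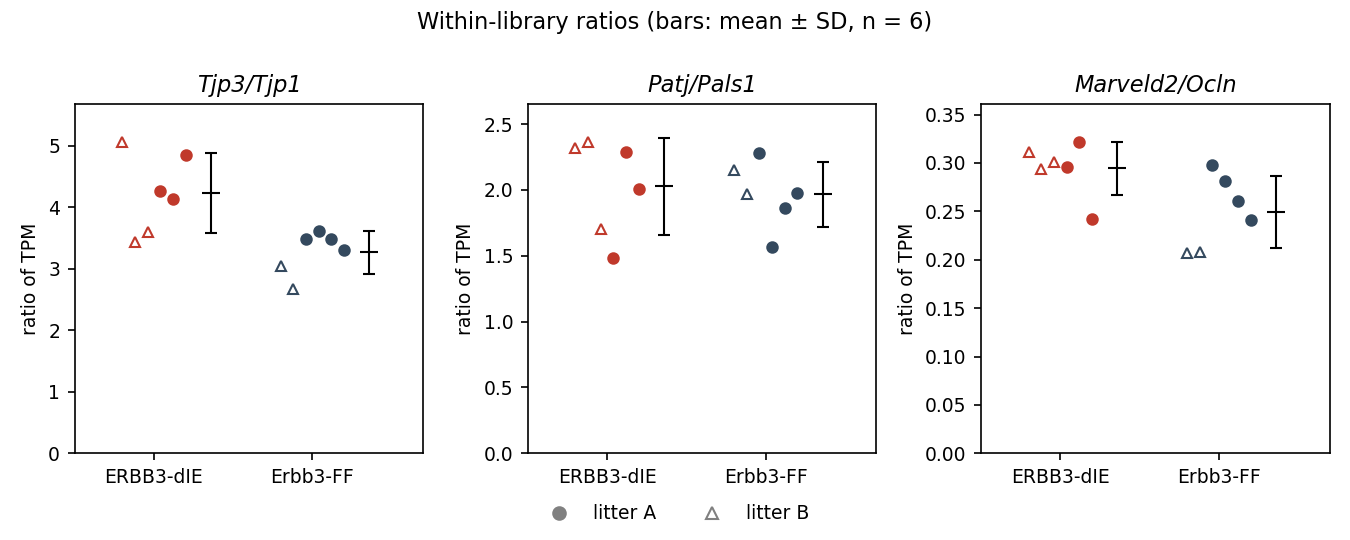
Ratio of TPM within each library for 3 gene pairs by genotype, with litter A as filled circles, litter B as open triangles and mean ± SD of 6 libraries as bars. The Tjp3 to Tjp1 ratio averages 4.23 in ERBB3-dIE and 3.27 in Erbb3-FF libraries, and the Patj to Pals1 ratio 2.03 and 1.97.

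Levels per length can be set in order. Over the 12 libraries F11r was highest (mean 146 TPM), then Tjp3 (102), Ocln (81.8), Cgn (44.9), Patj (39.3), Marveld3 (35.0), Tjp1 (27.8), Marveld2 (22.0) and Pals1 (19.8). ZO-3 transcripts thus exceeded ZO-1 transcripts in every library. Within libraries, an exact 2-sided sign-flip permutation test separated 5 of the 8 neighbouring pairs (adjusted p at most 0.0117). The 3 pairs that did not differ beyond their spread were Cgn and Patj (adjusted p = 0.0677), Patj and Marveld3 (0.217), and Marveld2 and Pals1 (0.205). By mean TPM, Marveld3 stood above Patj and Marveld2 above Pals1 in ERBB3-dIE mice, and in Erbb3-FF mice these neighbours stood the other way round. Single libraries departed from this. Patj was above Marveld3 in ERBB3-dIE mice 1 and 2 and below it in Erbb3-FF mouse 4. Marveld2 was above Pals1 in Erbb3-FF mice 3 and 4.

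After the litter and genotype means were removed, the members varied together only in part. Among the 36 pairs Pearson's r over the 12 libraries ran from −0.19 to 0.89, given as a description, since all genes share the same libraries and scaling. Pals1 and Marveld3 were most alike (0.89), followed by Pals1 and Cgn (0.76) and Tjp3 and Cgn (0.75). The partners Pals1 and Patj had r = 0.15. Ocln and Marveld2 had r = 0.68, and on chromosome 13 in RefSeq (GRCm38.p6) no protein-coding gene lies between them. Over 8643 genes searched, no member was among the 2 genes most like another member. The closest were Bud31 for Pals1 (r = 0.98, Spearman's rho 0.94), Llgl2, a basolateral polarity gene, for Tjp3 (r = 0.97, rho 0.94) and Cdc42bpb, a kinase gene acting on actin, for F11r (r = 0.94, rho 0.95). Next came Csta2 for Marveld2 (r = 0.94, rho 0.90), Nfyb for Marveld3 (r = 0.93, rho 0.92) and Furin, a protease gene, for Ocln (r = 0.93, rho 0.92). The closest to Patj was Ilrun (r = 0.92, rho 0.88), to Cgn Rit1 (r = 0.92, rho 0.81) and to Tjp1 Dhx36 (r = 0.89, rho 0.83).

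Other genes of the junction are given for comparison. Of 17 tested plaque and polarity genes none passed in either direction (limma; median log2 difference −0.14, 12 negative). Tjap1, which encodes a junction-associated protein, had the smallest p (−0.71, adjusted p = 0.0612). Crb3, the membrane anchor of Pals1, named after its value was seen, was 81.6 ± 14.6 TPM in ERBB3-dIE mice and 85.7 ± 10.1 TPM in Erbb3-FF mice (−0.14, limma adjusted p = 0.402). Of 4 tested membrane partners none passed (median −0.12), with Igsf5 at −0.19 (limma adjusted p = 0.262). Among 21 regulators of the junction 2 fell and none rose (median −0.26, 16 negative). They were Mylk, whose product phosphorylates the myosin light chain (48.2 ± 8.64 TPM in ERBB3-dIE and 72.1 ± 11.6 TPM in Erbb3-FF mice; −0.56, limma adjusted p = 0.0398), and Cttn, encoding the actin-binding cortactin (108 ± 12.8 TPM in ERBB3-dIE and 140 ± 10.8 TPM in Erbb3-FF mice; −0.41, limma adjusted p = 0.0201). Of 11 transcription factors none passed (median 0.12), with Ovol2 at 0.65 (limma adjusted p = 0.0680) and Grhl2, named afterwards, at 0.13 (limma adjusted p = 0.688).

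Some cell type markers moved with genotype. Of 10 villus enterocyte genes, which mark mature absorptive cells, 6 fell and none rose (median −1.08), with summed levels of 5589 to 19635 TPM in ERBB3-dIE mice and 11520.5 to 27182 TPM in Erbb3-FF mice. Of 8 goblet genes 4 rose and none fell (median 0.78), with sums of 33249 to 67812 TPM in ERBB3-dIE mice and 18784 to 30764 TPM in Erbb3-FF mice. Of 10 tested general epithelial markers 1 rose, Krt18 (0.34), and none fell (median −0.16), with sums of 7747 to 10604 TPM in ERBB3-dIE mice and 8987 to 11162 TPM in Erbb3-FF mice. Of 8 T cell genes 2 rose (Cd8a and Gzma), and of 9 crypt and cycling genes and 6 smooth muscle genes none passed (medians 0.62, 0.43 and 0.19). The 2 tested B cell genes had negative differences and were not called (median −1.58). No tested myeloid, stroma or endothelium gene passed (medians −0.20, 0.18 and 0.67). No gene of these lists was at 0 in all libraries.

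Scaled to the general epithelial markers, Pals1 stayed called (−0.41, limma adjusted p = 0.0185), while Patj (−0.40), Tjp1 (−0.26) and Cgn (−0.26) had adjusted p-values of 0.0790, 0.113 and 0.0669. With the villus enterocyte list as a covariate no member was called (limma adjusted p 0.239 to 0.708 for the 4 scaffolds). Pals1 was then at −0.41 and Tjp1 at −0.40, close to the values without it, whereas Cgn was at −0.22 and Patj at −0.14, and Ocln (0.04) and F11r (0.08) turned sign. With the goblet list as a covariate no member was called either. Cgn was then at −0.62, Patj at −0.57, Pals1 at −0.61 and Tjp1 at −0.31, with Ocln at −0.57 and F11r at −1.07. Both lists differ between the genotypes, and the cause of these shifts was not tested. Without Erbb3-FF mice 5 and 6, Pals1 and Cgn were called. Without ERBB3-dIE mice 4 and 5 none was called, with log2 differences of −0.47 for Pals1, −0.43 for Patj, −0.36 for Tjp1 and −0.31 for Cgn. Without Erbb3-FF mice 1 to 3, which leaves the genotypes to be compared in litter A alone, none was called and the 4 values lay between −0.47 and −0.35. In the authors' deposited table, where 7.51% of the genes with an adjusted p were called lower, the same 4 members were lower. Its log2 fold changes were −0.46 for Pals1 (adjusted p = 8.22e-07), −0.42 for Patj (0.00277), −0.37 for Cgn (0.00255) and −0.31 for Tjp1 (0.00398). They lie closer to the limma fit with no litter term than to the fit with litter. Without litter the values were −0.45 for Pals1, −0.42 for Patj, −0.37 for Cgn and −0.32 for Tjp1, and 0 members were called. The authors' test draws on the same libraries, so it is no independent repeat.

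**Figure D4:**
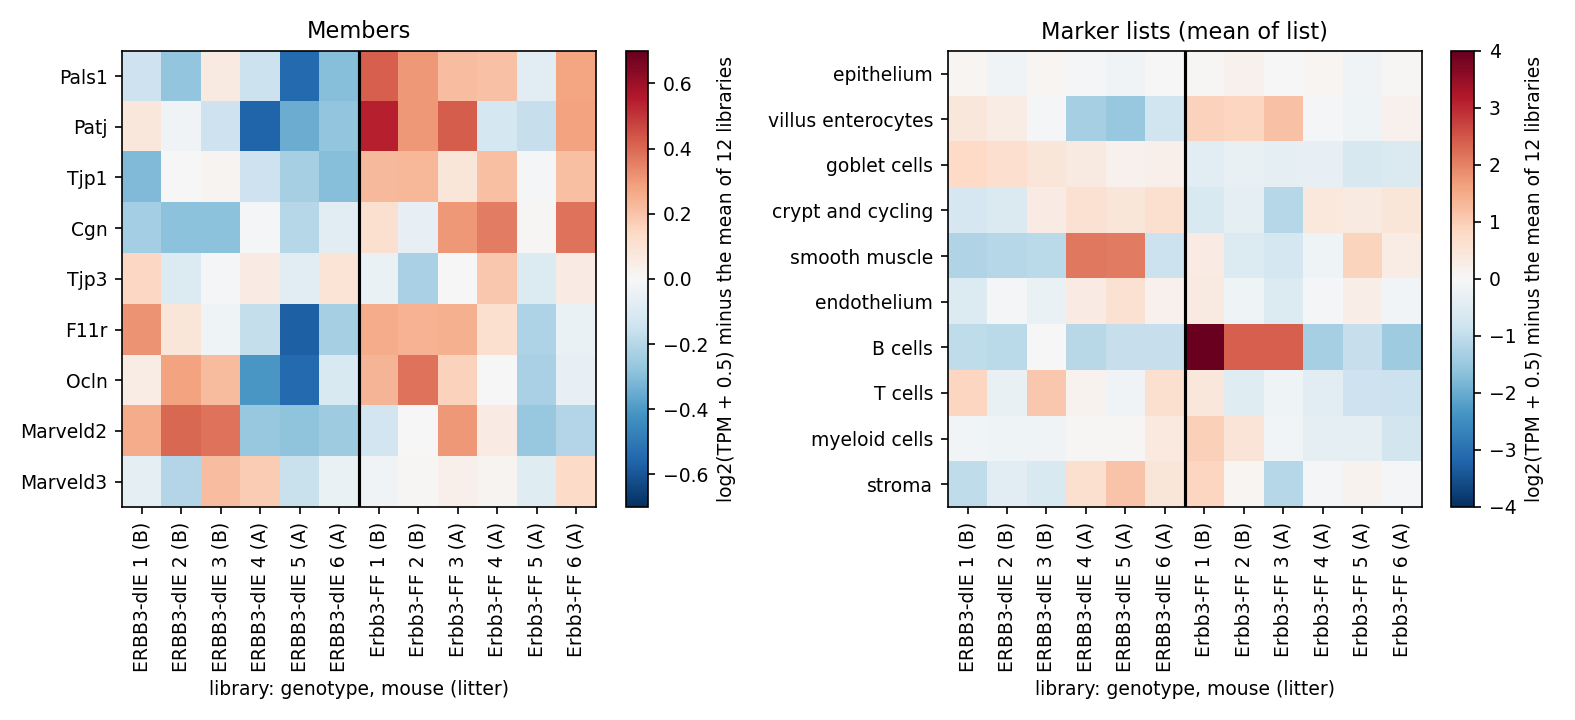
Deviation of each library from the mean of the 12 libraries on the log2(TPM + 0.5) scale, for the members (left) and the mean of each marker list (right), with libraries by genotype, mouse and litter in columns. Pals1, Patj, Tjp1 and Cgn are mostly blue (lower) in ERBB3-dIE libraries, beside lower villus enterocyte and higher goblet markers. Smooth muscle markers stand out in ERBB3-dIE mice 4 and 5 and B cell markers in Erbb3-FF mice 1 to 3.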

How the data were processed

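RNA was purified from scraped ileal mucosa and sequenced from stranded mRNA libraries as single-end reads of 75 bases, per the labels' protocols. CASAVA, Salmon 1.10.0, DESeq2 and build GRCm39 are named in the submitters' processing notes. The annotation release is not given in the sources used here. The authors deposited TPM per library, which sum to 1000000 in each, so depth is unknown. The deposited table also holds the authors' mean normalized count (baseMean, a signal), log2 fold changes, Wald score, p-value and adjusted p-value. These are ERBB3-dIE over Erbb3-FF.

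As TPM are not counts, the 12605 genes that reached 1 TPM in 6 or more libraries were tested on log2(TPM + 0.5) with limma 3.58.1 (R 4.3.3; lmFit, eBayes with a variance trend) on genotype and litter, with Benjamini-Hochberg adjustment over all tested genes and a threshold of 0.05. The interaction was a second model. The fold scale understates the change of low genes. Values ± are SD over mice. The steps were tested on simulated data, with few genes changed in each run and normal noise drawn independently for each gene. The shares recovered depend on these settings and are not the power in the real data. For log2 changes of 0.5, 1 and 2 the genotype test recovered 22.7%, 69.3% and 90%. The litter test recovered 21.8%, 69% and 91.8%, and the interaction test 0.299%, 10.1% and 57%. No library was a near copy of another (correlations 0.878 to 0.955).

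The members, the gene lists and the rule for named genes (all members, up to 3 called genes per junction list by size or else that with the smallest p, and the genes most alike) were chosen with earlier results of these data known. Alternatives covered the pseudocount, filter, scaling, variance model, litter term, mouse number as a block, single litters, covariates, left-out libraries, a permutation test and the authors' own test. Those that leave out several libraries, or use villus, goblet or crypt lists as a covariate, were added after seeing the data. Pals1 was matched to RefSeq as Mpp5. Figures were drawn with matplotlib 3.10.9.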

Additional observations from a re-analysis of the deposited data

Results flagged for a closer look

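In ERBB3-dIE mice the ratio of F11r to Tjp1 TPM was 8.07 in mouse 1, far from the next highest value of 5.52. The ratio of Marveld2 to Ocln TPM was 0.243 in ERBB3-dIE mouse 6, far below the next lowest value of 0.293. Each gap took over 0.625 of the range of its 6 libraries. Of 32 groups of values examined 2 stood out, and chance gives about 1 in 20.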

How the results depend on the processing

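The limits are the size of the groups (2 to 4 mice per genotype and litter), adjusted p-values near the threshold, unknown depth, and cell type markers that differ between genotypes. Pals1, Patj, Tjp1 and Cgn kept a negative difference in all 12 repeats without 1 library and under all 25 other settings. The 4 members called lower by genotype became 1 with no filter on low values or with epithelial scaling, and 2 with no variance trend, without Erbb3-FF mice 5 and 6, or with crypt markers as a covariate. They became 0 with no litter term, in litter A or B alone, with B cell, villus or goblet markers as a covariate, without ERBB3-dIE mice 4 and 5, and without Erbb3-FF mice 1 to 3. Summed goblet markers did not overlap between genotypes, so that covariate shares much with genotype. A single litter holds 7 or 5 libraries, and Pals1 was at −0.49 in litter A and −0.48 in litter B. These counts are not set beside the share of all genes called under each setting, so they show no change particular to the members. The permutation test over all genes gave 0, which was fixed by its smallest adjusted p of 0.0641. Leaving out 1 library gave 0 to 4. Under the other settings 3 or 4 were called. With the mouse number as a replicate block in place of litter 3 were called lower, and Tjp1 was not (−0.32, limma adjusted p = 0.0726). Mouse numbers were not taken as pairs: deviations of same-numbered mice correlated at 0.0739 to 0.357, and 2 of 6 matched best with their own number. No setting called a member higher or an interaction.

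The single litter call, Ocln, passed to Cgn without mitochondrial and ribosomal sequence (Ocln 0.31, limma adjusted p = 0.0554). The count became 2 with upper-quartile scaling, 3 with library weights, and 0 with no filter, with epithelial scaling, with any of the marker lists tried as a covariate, or without Erbb3-FF mice 5 and 6 or ERBB3-dIE mice 4 and 5. Leaving out 1 library gave 0 to 4, with 4 without Erbb3-FF mouse 3. The difference of Ocln between litters then ran from 0.39 to 0.49.

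Signs turned for members near 0. Marveld3 was at 0.035 with upper-quartile and 0.053 with epithelial scaling, and between −0.073 and 0.016 without 1 library. Tjp3 was at −0.012 in litter A, −0.024 without Erbb3-FF mice 1 to 3 and −0.30 with goblet markers as a covariate. Marveld2 was at −0.24 in litter A, −0.012 with B cell markers, −0.87 with goblet markers, −0.018 without Erbb3-FF mice 5 and 6, −0.13 without Erbb3-FF mice 1 to 3, and between −0.061 and 0.11 without 1 library. With villus markers Ocln was at 0.044 and F11r at 0.083. Among log2 ratio differences, Patj to Pals1 was −0.0019 with a pseudocount of 1 and −0.063 to 0.098 without 1 library. Cgn to Tjp1 was −0.049 with litters ignored and −0.043 to 0.031 without 1 library. F11r to Tjp1 was −0.0043 to 0.15, Tjp3 to Tjp1 0.32 to 0.42 (0.36 with litters ignored) and Marveld2 to Ocln 0.22 to 0.36, called without ERBB3-dIE mouse 6 (adjusted p = 0.0467). The cause of the other changes was not tested.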
